A study of Mus musculus with 2 samples.

Results

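Most nucleated cells display fragments of their own cytosolic proteins on MHC class I, and the genes described here cut, carry and load those fragments. They were 10 named mouse genes, B2m, Tap1, Tap2, Tapbp, Erap1, Psmb8, Psmb9, Psmb10, Psme1 and Psme2. Every probe set (several short oligonucleotides read as 1 signal) whose annotation named exactly 1 gene was taken if that gene was on this list. This gave 16 probe sets for 9 genes, of 34945 such probe sets and 18193 genes on the array. Psme2, the partner of Psme1, was represented only by a probe set that names 2 genes, and so gave no value.

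The data came from 2 one-colour Affymetrix arrays hybridised with biotin-labelled cRNA. The comparison asks how exposure to retinal pigment epithelium (RPE), a pigmented layer that supports the photoreceptors, alters T-cell transcripts. One array held RNA of T cells exposed to primary cultured RPE, and the other held RNA of control T cells without that exposure, titled as CD4 T cells. Mice of both groups were 6 weeks old, male and of the C57 BL/6 background. The labels name no transgene, stimulus or length of exposure, and do not say whether cells of several animals were pooled. For the exposed sample the tissue field names the epithelium rather than T cells. With 1 array per group nothing shows how samples of a group vary, so no difference could be tested, and precision is limited by the number of arrays.

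In this pathway the proteasome degrades cytosolic proteins. Under interferon, 3 of its catalytic subunits are replaced by the inducible subunits encoded by Psmb8, Psmb9 and Psmb10, which gives the immunoproteasome, and the Psme1 and Psme2 proteins form the PA28 cap that opens it. The TAP transporter, made of the Tap1 and Tap2 proteins, pumps the peptides into the endoplasmic reticulum. There the aminopeptidase encoded by Erap1 trims them, and tapasin, encoded by Tapbp, bridges TAP to the waiting class I molecule. Each class I molecule pairs a heavy chain with the light chain beta-2 microglobulin, encoded by B2m. Lymphocytes express this machinery in the resting state and interferon-gamma raises it.

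The stretches of DNA upstream of these genes are shown because interferon acts on several of them through short motifs there. RefSeq's table of promoters (GRCm38.p6) held entries for 9 of the 10 genes, Tap2 being the other. Capitals mark matches to any of 3 motifs searched on both strands: the interferon-stimulated response element core (GAAA, any 2 bases, GAAA), the STAT site TTCNNNGAA, and the NF-kappaB consensus. The 250 bases before the start of B2m (chr2:122147437-122147686, plus strand) hold the first and the third motif, those before Psmb8 (chr17:34197945-34198194, plus strand) hold the second, and those before Tapbp (chr17:33919228-33919477, plus strand), the gene with the largest difference below, hold none.
B2m: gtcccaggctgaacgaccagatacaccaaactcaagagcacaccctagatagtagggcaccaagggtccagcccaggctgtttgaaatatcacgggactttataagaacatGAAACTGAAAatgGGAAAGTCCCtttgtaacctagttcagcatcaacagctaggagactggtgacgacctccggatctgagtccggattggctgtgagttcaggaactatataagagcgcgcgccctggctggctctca
Psmb8: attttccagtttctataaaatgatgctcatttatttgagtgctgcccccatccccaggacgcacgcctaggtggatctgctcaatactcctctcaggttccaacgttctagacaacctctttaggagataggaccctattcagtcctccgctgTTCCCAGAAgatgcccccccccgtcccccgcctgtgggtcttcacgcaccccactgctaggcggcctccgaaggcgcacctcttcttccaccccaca
Tapbp: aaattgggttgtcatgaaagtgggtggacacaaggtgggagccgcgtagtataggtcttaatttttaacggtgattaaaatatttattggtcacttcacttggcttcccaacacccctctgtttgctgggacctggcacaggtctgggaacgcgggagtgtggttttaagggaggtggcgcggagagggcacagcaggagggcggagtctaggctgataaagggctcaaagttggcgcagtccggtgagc
Psmb9 and Tap1 start 226 bases apart and are read in opposite directions, so 1 stretch of 225 bases lies upstream of both (chr17:34187331-34187555, plus strand, from the start of Psmb9 to that of Tap1).
Psmb9-Tap1: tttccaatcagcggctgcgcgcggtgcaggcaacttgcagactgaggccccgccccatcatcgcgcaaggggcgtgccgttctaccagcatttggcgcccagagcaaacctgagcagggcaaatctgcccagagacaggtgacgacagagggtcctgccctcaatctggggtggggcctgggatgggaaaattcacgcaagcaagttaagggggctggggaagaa
In B2m the response element match lies 139 to 130 bases before the start and the NF-kappaB match 126 to 117 bases before it, with no overlap. The STAT-site match of Psmb8 lies 97 to 89 bases before its start. Each motif was found upstream of 1 of the 9 genes, and in 2.98%, 7.02% and 5.00% of all 32851 windows of this length. A match is a description of letters and not a mapped binding site.

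The pathway was measured well above the detection floor on both arrays and differed little between them. By each gene's brightest probe set, the largest differences were small and positive, in Tapbp and in the inducible subunit gene Psmb10. Psmb10 rested on 1 probe set, and the 2 probe sets of Psmb8 disagreed in sign. A signal counted as measured above a floor, the median of all probe sets but the manufacturer's controls (16 on the RPE-exposed and 15.9 on the control array). All 9 genes lay above it on both arrays by their brightest probe set, which stands for the gene here. Their log2 differences, RPE-exposed minus control, ran from -0.01 to 0.36 with a median of 0.12, beside a median of -0.01 over the 10995 genes compared. The difference was positive for 7 of 9 genes, against 48.2% of all genes compared. It reached 1.2-fold for 2 genes, Tapbp and Psmb10, against 14.3% of all genes, and no member was 1.2-fold lower, against 16.7%. No member was 1.5-fold or 2-fold different in either direction; of all genes, 3.12% were higher and 3.82% lower by 1.5-fold or more, and 0.437% higher and 0.628% lower by 2-fold or more. Dim genes scatter more (pooled SD between probe sets of 1 gene 0.29 at signals under 100, against 0.18 at 500 or more), so the 2277 genes at least as bright as the dimmest member form a closer background, and of these 57.7% had a positive difference, 6.41% were 1.2-fold higher and 5.71% were 1.2-fold lower.

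**Figure D1:**
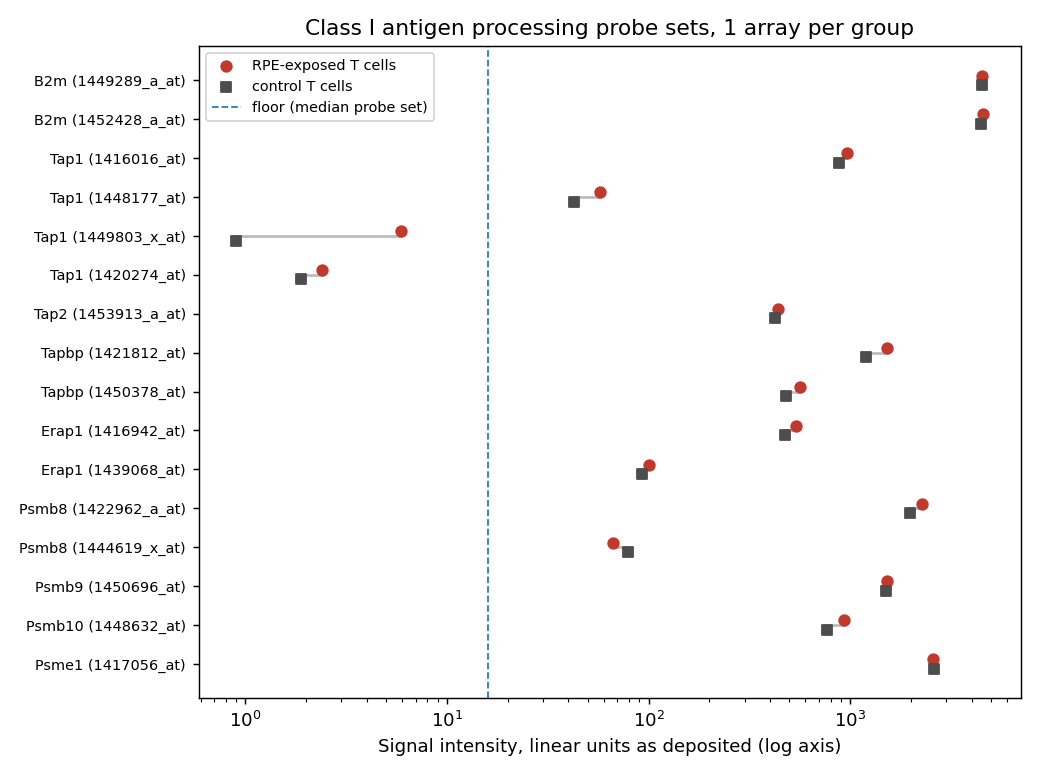
Signal of each of the 16 probe sets of the class I antigen processing genes on the RPE-exposed (red circles) and the control array (grey squares), on a log axis of linear intensity, with the floor as a dashed line. There is 1 array per group and no error bar; 14 probe sets lie above the floor on both arrays and 2 of Tap1 lie under it on both.

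The light chain gene B2m was nearly equal on the arrays. Its brighter probe set gave a signal of 4494.6 in RPE-exposed and 4511.0 in control T cells, and the other gave 4565.5 in RPE-exposed and 4431.3 in control T cells. The log2 differences of -0.01 and 0.04 disagree in sign and are both small beside the pooled SD of 0.18 between probe sets of 1 gene at signals of 500 or more (725 genes). That SD describes probe sets within this pair of arrays and is not an error between samples. The classical heavy chains that pair with this protein, H2-K1 (log2 difference -0.04) and H2-D1 (0.06), named after their values were seen, were likewise close to 0.

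Of the peptide transporter, Tap1 had a signal of 961.0 in RPE-exposed and 884.0 in control T cells, a log2 difference of 0.12. A second, dim probe set of Tap1 gave 57.2 in RPE-exposed and 42.6 in control T cells (0.43). Its remaining 2 probe sets lay under the floor on both arrays, at 5.9 and 2.4 in RPE-exposed and 0.9 and 1.9 in control T cells. The mean over all 4 was 0.86, a value that includes the 2 undetected ones. Tap2, with 1 probe set, had a signal of 438.3 in RPE-exposed and 425.5 in control T cells (0.04). Both transporter genes were slightly brighter on the RPE-exposed array by their brightest probe set, by less than the SD between probe sets of 1 gene (0.18 for the level of Tap1 and 0.23 for that of Tap2).

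Tapbp, encoding tapasin, had the largest difference of the 9 genes. Its brighter probe set had a signal of 1524.6 in RPE-exposed and 1191.6 in control T cells, 1.28-fold higher in RPE-exposed cells (log2 difference 0.36). The second probe set gave 566.9 in RPE-exposed and 479.0 in control T cells (0.24), and the 2 averaged 0.30 ± 0.080 (SD between probe sets). Tapbp was the 1 member outside its like-level range, the span that holds the middle 95% of differences when all compared genes are cut into 20 equal groups by mean signal, which ran from -0.18 to 0.30. It lay at the lower edge of its group, brighter than 94.998% of the genes compared. The range of the next dimmer group, that of Tap1 and Psmb10, ran from -0.3585 to 0.3571. That range would hold the 0.3555 of Tapbp, so its place outside depends on where the groups were cut. Among the 2277 bright genes Tapbp ranked 73rd from the highest difference. Erap1, the trimming aminopeptidase, had a signal of 537.9 in RPE-exposed and 472.4 in control T cells (0.19), and its second probe set gave 100.3 in RPE-exposed and 92.7 in control T cells (0.11). Both its probe sets were brighter on the RPE-exposed array, within the like-level range of -0.40 to 0.37.

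**Figure D2:**
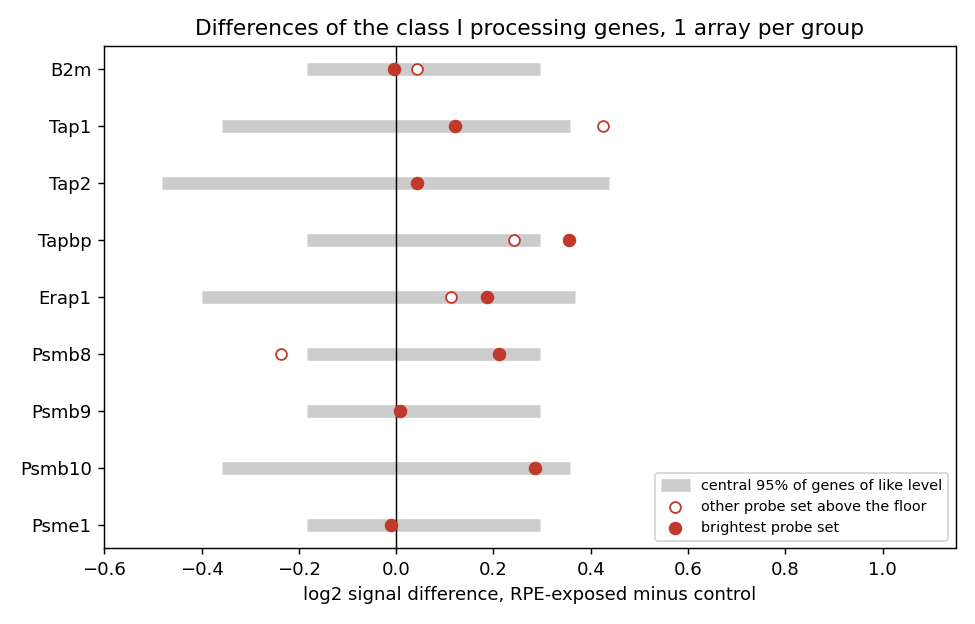
Log2 signal difference, RPE-exposed minus control, of the 9 genes by their brightest probe set (filled circles) and by other probe sets measured on both arrays (open circles), over the central 95% of genes of like level to the brightest probe set (grey bars). Tapbp at 0.36 lies above its bar but at the lower edge of its signal group, and the range of the next dimmer group would hold it. The 2 probe sets of Psmb8 lie on opposite sides of 0.

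The 3 inducible proteasome subunits gave log2 differences from 0.01 to 0.29, each within its like-level range. Psmb10 (beta2i) had a signal of 932.8 in RPE-exposed and 765.2 in control T cells, 1.22-fold higher in RPE-exposed cells (0.29, like-level range -0.36 to 0.36, 1 probe set). Psmb8 (beta5i) had a signal of 2284.0 in RPE-exposed and 1971.7 in control T cells (0.21). A dim probe set of Psmb8 gave 66.8 in RPE-exposed and 78.7 in control T cells (-0.24), so the mean of the 2 was -0.01. Both names carry a suffix letter, a for the brighter and x for the dim probe set. Probes of sets with the suffix x, s or a can be shared by several transcripts or genes. Psmb8 had no value when such probe sets were left out. Psmb9 (beta1i), with 1 probe set, had a signal of 1518.7 in RPE-exposed and 1509.3 in control T cells (0.01). Psmb9 and its neighbour Tap1, which share the upstream stretch printed above, thus gave 0.01 and 0.12. Psme1, the alpha subunit of the PA28 cap, had a signal of 2584.7 in RPE-exposed and 2603.8 in control T cells (-0.01). Psmb9 and Psme1 differed by under 1% between the arrays.

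Each inducible subunit takes the place of 1 constitutive subunit, so the 3 pairs were set side by side as differences. The constitutive genes gave log2 differences of 0.10 for Psmb5, with signals of 1476.4 in RPE-exposed and 1372.9 in control T cells, 0.04 for Psmb6 and 0.03 for Psmb7. The inducible difference exceeded the constitutive one by 0.26 for Psmb10 over Psmb7 and by 0.11 for Psmb8 over Psmb5. For Psmb9 over Psmb6 it was -0.03. The median over the 3 pairs was 0.11, and averaging each gene's probe sets turned it to -0.03.

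**Figure D3:**
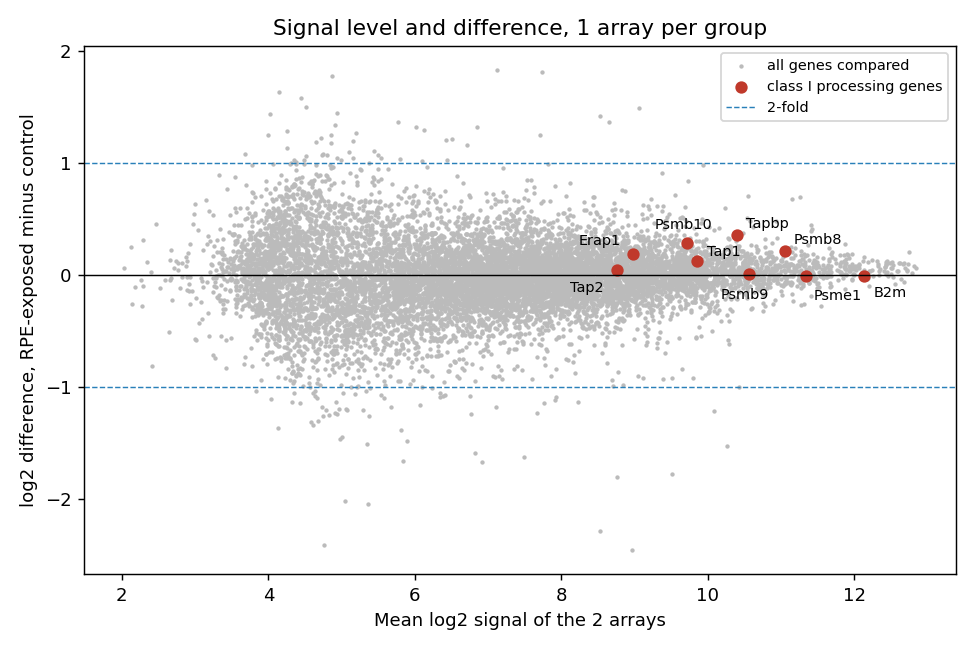
Log2 difference, RPE-exposed minus control, against the mean log2 signal of the 2 arrays for the 10995 genes compared (grey) and the 9 class I processing genes (red), with 2-fold differences as dashed lines. The red points lie between -0.01 and 0.36, in the bright part of the plot where most genes differ little.

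The endoplasmic reticulum list, of translocation genes and others with chaperones that hold and fold class I molecules before loading, had positive differences throughout. All 13 genes of this list with a value lay above 0, with a median of 0.11 and 2 of them 1.2-fold higher. Of all genes compared, 48.2% were positive and 14.3% were 1.2-fold higher, against 57.7% and 6.41% of the 2277 bright genes. Signals of Tapbpl, the tapasin-related peptide editor, were 468.1 in RPE-exposed and 361.0 in control T cells (0.37). Prkcsh, the glucosidase II beta subunit of glycoprotein folding, gave 595.5 in RPE-exposed and 462.6 in control T cells (0.36), and the translocon subunit gene Sec61b gave 0.24. Each of the 13 genes lay within its like-level range, whose upper end was 0.44 for Tapbpl, 0.37 for Prkcsh and 0.30 for Sec61b. Of the loading complex itself, Pdia3, the oxidoreductase bound to tapasin, gave 0.18, the lectin chaperone Canx 0.16 and its relative Calr 0.01, named here after their values were seen. Under quantile normalization 12 of 13 were positive, and likewise 12 of 13 with probe sets averaged.

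Other steps of the pathway showed no common direction. For all genes compared, 48.2% were positive, 14.3% were 1.2-fold higher and 16.7% were 1.2-fold lower. Among the 2277 bright genes these shares were 57.7%, 6.41% and 5.71%. Of 21 other proteasome genes (core subunits, assembly factors and regulators), 13 had positive differences with a median of 0.04, none was 1.2-fold higher and 1 was 1.2-fold lower. After quantile normalization 10 of 21 were positive. The one lower was the assembly chaperone gene Psmg2 (-0.28), and those with the largest positive differences were Psme4, encoding the PA200 activator (0.25), and the assembly chaperone gene Psmg3 (0.24, but -0.86 with probe sets averaged). Of 11 cytosolic peptidases, which shorten peptides before transport, 5 were positive with a median of -0.0034. Npepps, the puromycin-sensitive aminopeptidase, gave 0.27 but -0.34 with probe sets averaged. Tripeptidyl peptidase II, Tpp2, gave 0.24 but -0.02 when probe sets with the suffix x, s or a were left out. Lap3, the leucine aminopeptidase, gave -0.19. The averages of Psmg3 and Npepps took all probe sets of the gene, whether or not they lay above the floor. Of 8 class I heavy chain genes and other partners of beta-2 microglobulin above the floor, 3 were positive with a median of -0.03, none was 1.2-fold higher and 1 was 1.2-fold lower. That gene, H2-T3, named after its value was seen, had a signal of 10 in RPE-exposed cells, under the floor, and 25.8 in control T cells, at least 1.61-fold lower in RPE-exposed cells. Of those measured on both arrays, the largest differences were those of Cd1d1, which presents lipids to NKT cells (0.21, but -0.07 when the suffixes x, s and a were left out), H2-T24 (0.14) and H2-Q10 (-0.12). Heavy chain genes are close paralogs whose probes can share signal, so these values are uncertain as separate measurements.

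Of the regulators of the pathway, interferon-gamma and the cytokine signalling inhibitors Socs1 and Socs3 were lower. The list of interferon signalling and class I transcription factor genes had a median of -0.07 over 24 genes, 4 of them higher and 7 lower by 1.2-fold or more, against 14.3% and 16.7% of all genes. Ifng, whose protein induces the immunoproteasome, had a signal of 971.4 in RPE-exposed and 1950.0 in control T cells (-1.01). The inhibitors of cytokine signalling gave -0.72 for Socs1 (224.6 in RPE-exposed and 368.8 in control T cells) and -0.84 for Socs3. Of the transcription factors, Nlrc5, the class I transactivator, was at 619.7 in RPE-exposed and 650.8 in control T cells (-0.07), and Irf1, an interferon-induced activator, at 847.7 in RPE-exposed and 895.5 in control T cells (-0.08). Other factors of the list differed more, here named after their values were seen. Irf2 gave 133.4 in RPE-exposed and 95.9 in control T cells (0.48, like-level range -0.56 to 0.47). Rfxank, a subunit of the RFX complex, was dim, at 65.7 in RPE-exposed and 51.9 in control T cells. Its difference of 0.34 lay well within its like-level range of -0.74 to 0.65. Irf8, which B cells and myeloid cells also express, gave 1015.8 in RPE-exposed and 1557.2 in control T cells (-0.62, like-level range -0.36 to 0.36). The lowest difference among the 9 processing genes on the same arrays was -0.01, that of Psme1.

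Markers of some other cells moved as well, and B cells and antigen-presenting cells also express the class I pathway. Of 8 T-cell markers above the floor, 4 were positive, with a median of 0.09. Both chains of CD8, the receptor for class I, were detected in samples of which the control is titled as CD4 cells, with Cd8b1 at 983.9 in RPE-exposed and 706.4 in control T cells (0.48) and Cd8a at 694.6 in RPE-exposed and 568.8 in control T cells (0.29), beside Cd4 at 271.1 in RPE-exposed and 287.0 in control T cells (-0.08). All 9 B-cell markers were lower, where 48.2% of all genes had a positive difference, with a median of -0.66 and a summed signal of 1373.2 in RPE-exposed and 2148.3 in control T cells. Of 11 macrophage and dendritic-cell markers 9 were lower, with a median of -0.43 and a summed signal of 3240.9 in RPE-exposed and 4275.7 in control T cells. Of these sums, H2-Aa, H2-Ab1, H2-Eb1 and Cd74, which B cells also express, made up 3101.0 in RPE-exposed and 4075.2 in control T cells. The other 7 markers summed to 139.9 in RPE-exposed and 200.5 in control T cells, and Csf1r (0.11) and Adgre1 (0.16) among them were positive. NK-cell markers had no common direction, with 2 of 4 positive, 2 negative and a median of -0.08. In RNA of mixed cells, fewer cells of a type and less RNA per cell cannot be told apart. Of 16 RPE markers 13 lay under the floor on both arrays, among them Rpe65, at 2.3 in RPE-exposed and 5.3 in control T cells. The other 3 lay near the floor. Pmel gave 18.3 in RPE-exposed and 15.2 in control T cells, Rdh5 16.1 and 12.7, and Mitf 15.2 and 17.3. No listed marker was at 0. The part of these cell types in the differences of the processing genes was not tested.

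**Figure D4:**
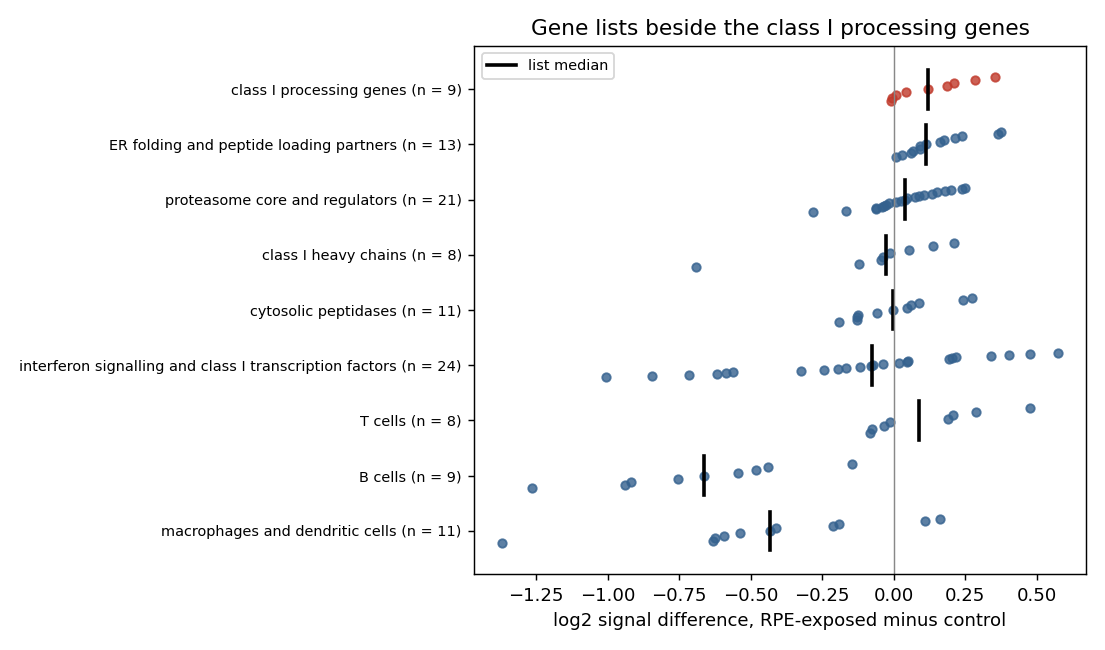
Log2 difference, RPE-exposed minus control, of each gene above the floor on at least 1 array in the class I processing genes (red) and in 8 other lists (blue), with the list median as a black bar. The medians are 0.12 for the processing genes and 0.11 for the endoplasmic reticulum list, and -0.66 for B-cell markers.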

How the data were processed

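Mouse T-cell RNA was measured on 1 array per group. The authors deposited linear intensities, with no log taken, in 1 column per array. These intensities were already on a common scale, since the mean after trimming 2% at either end was 100.0 for both arrays. Per the labels' protocols, RNA was reverse transcribed and labelled by in vitro transcription. How probes were summarized into probe sets is not given in the sources used here.

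Genes were named from the platform annotation. Control probe sets (64) and those naming no gene or several were left out. Log2 differences, RPE-exposed minus control, were computed in Python 3.11.15 (pandas 2.3.3, numpy 2.4.6, matplotlib 3.10.9). The probe set of highest mean log2 signal stood for its gene, and signals under the floor were set to it. Where probe sets were averaged instead, the floor was applied to the mean and not to each probe set. A gene was compared if either array put it above the floor. The steps were tested on simulated data. The members and lists were chosen with earlier results of these data known. Genes named are all members, the constitutive counterparts Psmb5, Psmb6 and Psmb7, the 3 largest differences of each context list among genes measured on both arrays, and the regulators Nlrc5, Irf1, Ifng and Socs1. There were 8 alternative settings.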

Additional observations from a re-analysis of the deposited data

How the results depend on the processing

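Across 8 alternative settings the median of the 9 genes stayed positive, from 0.043 with probe sets averaged to 0.15 with only probe sets without the suffix x, s or a, where 6 of the genes had a value. The number at least 1.2-fold higher was 2 or 3, and none was 1.2-fold lower. One gene, Tap1, was at least 1.5-fold higher with probe sets averaged, and none in the other settings. That average took in 2 undetected probe sets, and the mean over the 2 above the floor was 0.27. In single genes, averaging gave 0.86 for Tap1, -0.012 for Psmb8, -0.34 for Npepps and -0.86 for Psmg3. The sign of values near 0 depended on the setting: B2m ran from -0.0053 to 0.019, Psmb9 from -0.023 to 0.033 and Psme1 from -0.062 to 0.013, so that 9 of 9 genes were positive after median centring. Tapbp ran from 0.30 to 0.38 and Psmb10 from 0.27 to 0.31. No paired analysis was possible because each group has 1 array. The strength of the signal over the floor does not limit the 9 brightest probe sets, but the absence of replicates does.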

Other observations

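The receptor genes through which interferons reach this pathway did not share a direction. Ifngr1, the ligand-binding chain of the interferon-gamma receptor, had a signal of 810.1 in RPE-exposed and 544.3 in control T cells (log2 difference 0.57, like-level range -0.44 to 0.51). Ifngr2, its signalling chain, had a signal of 73.0 in RPE-exposed and 109.5 in control T cells (-0.58, like-level range -0.72 to 0.61). Of the receptor for type I interferons, Ifnar1 gave 326.9 in RPE-exposed and 247.2 in control T cells (0.40), and Ifnar2 gave 231.3 in RPE-exposed and 228.4 in control T cells (0.02). The kinase gene Jak2 gave 529.3 in RPE-exposed and 780.4 in control T cells (-0.56), below its like-level range of -0.44 to 0.51, while Jak1 gave 0.05. These genes were chosen after their values were seen.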
